A study of Homo sapiens with 8 samples.

Results

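In order to follow the stress pathways of the secretory system after loss of RND3, 34 genes of the unfolded protein response and of the ATF4 stress response were read out in U87 cells. They were taken by name from a list of both pathways and matched to array probes by a rule that reads no measured value, although the list was drawn up when earlier results of these data were known, and make up 34 of the 19483 gene symbols with a probe. Each gene was represented by the probe with the brightest mean at 24 h. U87 is an established line from a grade IV glioma, and the experiment profiled the transcriptional response to silencing of RND3 (also named RhoE). All cells received siRNA by reverse transfection with Lipofectamine RNAiMAX. The siControl cells were given a non-silencing siRNA and the siRND3 cells an siRNA against RND3, and RNA was collected at 24 h (3 arrays for each treatment) and at 48 h (1 array for each treatment). The study's methods name a pair of RND3 oligos, and the labels do not say which of them was used on which array. Nor do the labels say whether arrays of a group came from separate transfections, so that the p-values given here measure the spread between these arrays, which may be technical.

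The unfolded protein response adjusts the endoplasmic reticulum (ER) to the load of proteins that it has to fold. Sensors in the ER membrane detect misfolded proteins: IRE1 (gene ERN1) splices the mRNA of XBP1, PERK (EIF2AK3) phosphorylates the initiation factor eIF2alpha and thereby favours translation of ATF4, and ATF6 is cleaved into a transcription factor. The resulting factors switch on chaperones, disulfide isomerases and the machinery that returns misfolded proteins to the cytosol for degradation, while ATF4, which other eIF2alpha kinases feed as well, drives genes of amino acid supply and, with DDIT3 (CHOP), genes of stress-induced cell death.

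RND3 was examined first as the check of the treatment. Its log2 intensity was 11.88, 11.91 and 11.90 on the siControl arrays and 10.13, 10.18 and 10.41 on the siRND3 arrays at 24 h, a difference of -1.66 (SE 0.09, limma adjusted p = 0.00034), and it was 11.48 against 9.83 at 48 h. All 8 arrays lay on 1 slide with 68.3% to 70.7% of probes well above background, and arrays correlated at r = 0.991 to 0.995 within and 0.987 to 0.989 between treatments at 24 h. The siRND3 arrays occupied row 1 of the slide and the siControl arrays row 2, so that row and treatment cannot be told apart. Of the markers of mesenchymal glioblastoma lines 7 of 7 were well above background on all 8 arrays. CD44 was called lower (-0.56) and NES higher (0.41) in siRND3 at 24 h, and their differences at 48 h were -2.11 and 2.10. The summed log2 level of that list at 24 h, in which VIM was brightest, was 17.85 to 17.94 in siControl and 17.65 to 17.81 in siRND3. Of the astrocyte markers 2 of 5 were well above background on all 8 arrays, SLC1A3 and ALDH1L1, whereas GFAP, the defining astrocyte filament, was so on none. SLC1A3 was called lower in siRND3 at 24 h (-0.34, limma adjusted p = 0.031), and its difference at 48 h was -0.88. ALDH1L1 had the opposite sign at 24 h (0.44, limma adjusted p = 0.20) and was not called. The summed log2 level of the astrocyte list at 24 h was 10.38 to 10.45 in siControl and 10.04 to 10.13 in siRND3. That sum was almost all SLC1A3, whose siControl mean was 10.37 against 4.33 for ALDH1L1. Of the markers of other cell types 7 of 10 were well above background on all 8 arrays, and KRT5, CDH1 and RBFOX3 on none. Of the 7 tested, PECAM1 and SYT1 were called lower in siRND3 at 24 h. CDH5 (0.31, limma adjusted p = 0.059) and MOG (0.23, limma adjusted p = 0.17) were higher on every siRND3 array, and EPCAM (-0.20, limma adjusted p = 0.27) was lower on every one, none of them called. The summed log2 level of that list, in which MOG was brightest, was 9.77 to 9.90 in siControl and 9.87 to 10.02 in siRND3. The part of these marker movements in the results was not tested.

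At 24 h, 4 of the 34 genes were lower in siRND3 than in siControl cells and 0 were higher, against 8.31% of all 14797 genes tested called lower and 6.71% called higher (15.0% in either direction). The genes that fell were the transcription factors CREB3L2 and XBP1, the ER-associated degradation gene HERPUD1 and the ATF4 target CHAC1, which stood at 67.6%, 76.0%, 72.0% and 78.3% of the siControl level respectively. The arrays measured RNA of whole cultures, in which fewer cells with a transcript and less of it per cell cannot be told apart. A member was called where its limma p-value, adjusted by Benjamini-Hochberg over all probes tested, was under 0.05. At an unadjusted p under 0.05, 8 members were lower and 2 higher, where 14.6% and 18.5% of all genes tested were. Values were below 0 for 25 members and above 0 for 9, with a median log2 difference of -0.10 compared to 0.04 over all genes tested. The groups at 24 h did not overlap for 41.6% of all genes tested. Among the members they did not overlap for 10 with siRND3 lower, where 17.5% of genes behaved so, and for 5 with siRND3 higher, where 24.1% did.

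Without siControl replicate 1, 2 or 3 the number of members called was 0, 1 (HERPUD1) and 0, while the share of all genes called also dropped, to 6.72%, 7.33% and 6.29%. Without siRND3 replicate 1 the number of members was 2 (CREB3L2 and HERPUD1), and without siRND3 replicate 2 or 3 it was 3 each, with CHAC1 lost, at 11.3%, 10.1% and 10.3% of all genes called. The 30 members not called had log2 differences no larger in size than 0.31, and the 95% interval of each lay within 1 log2 unit of 0, the widest reaching 0.63 from it. All 34 were well above background on all 8 arrays and none had a missing value. The SD over 3 arrays ran from 0.02 to 0.23 with a median of 0.06 in siControl and from 0.01 to 0.27 with a median of 0.08 in siRND3.

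**Figure D1:**
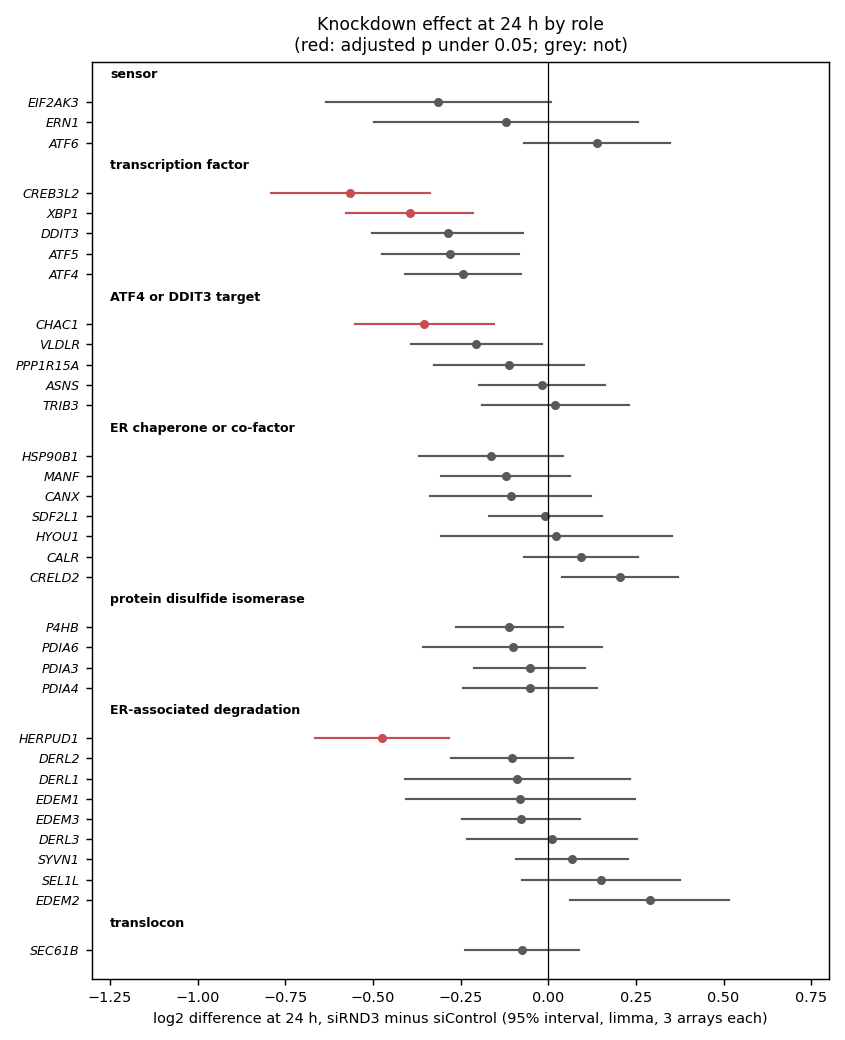
Log2 difference at 24 h (siRND3 minus siControl, 3 arrays each) for the 34 genes by role, with 95% intervals from limma, red where the adjusted p was under 0.05. The red points are CREB3L2, XBP1, CHAC1 and HERPUD1, between -0.56 and -0.35, and the intervals of the transcription factors all lie below 0 while those of the sensors and disulfide isomerases all cross it.

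The transcription factors had the lowest median of the role groups. All 5 had a difference below 0 at 24 h, with a median of -0.29, and each reached an unadjusted p under 0.05, but only CREB3L2 and XBP1 passed the adjusted threshold. CREB3L2 encodes an ER-anchored factor that is cleaved under stress and activates genes of the secretory pathway. It read 12.36, 12.30 and 12.26 in siControl and 11.77, 11.58 and 11.87 in siRND3, giving a difference of -0.56 (SE 0.09, adjusted p = 0.015). The lowest siControl value exceeded the highest siRND3 value. A second CREB3L2 probe, with siControl values from 8.43 to 8.49 and siRND3 values from 8.28 to 8.45, gave a difference of -0.07 (adjusted p = 0.59), so the gene's probes did not behave alike, and their mean gave -0.32.

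XBP1 encodes the factor whose spliced mRNA carries the IRE1 signal to the nucleus. Its intensity was 12.70, 12.57 and 12.65 in siControl compared to 12.18, 12.29 and 12.28 in siRND3, a difference of -0.40 (SE 0.07, adjusted p = 0.022) with no overlap between groups. The files identify its probe by accession only, and whether it separates spliced from unspliced XBP1 mRNA was not analysed here. The XBP1 promoter is printed because it holds a full ER stress response element (ERSE), the composite site at which a CCAAT box and a CCACG box are held apart by a fixed spacer. The RefSeq window of GRCh38.p14 runs from 250 bases before to 50 bases after the annotated start on the minus strand (chr22:28800520-28800819), and the capitals mark the ERSE, at bases -52 to -34 from the start:
XBP1: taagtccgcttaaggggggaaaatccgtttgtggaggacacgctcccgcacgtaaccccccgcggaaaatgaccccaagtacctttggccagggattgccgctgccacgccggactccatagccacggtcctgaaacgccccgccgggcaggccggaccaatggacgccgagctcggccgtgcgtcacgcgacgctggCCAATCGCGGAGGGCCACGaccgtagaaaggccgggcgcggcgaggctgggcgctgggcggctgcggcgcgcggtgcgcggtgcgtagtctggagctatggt

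ATF4, the factor shared by the PERK branch and the amino acid response, read 14.63, 14.57 and 14.66 in siControl and 14.42, 14.36 and 14.36 in siRND3, a difference of -0.24 (SE 0.07) that did not pass the threshold (adjusted p = 0.070) although the groups did not overlap. ATF5, a related factor that is itself translated under stress, gave 9.07, 9.20 and 9.14 against 8.80, 8.97 and 8.81 (-0.28, SE 0.08, adjusted p = 0.076). DDIT3, the pro-apoptotic partner known as CHOP, gave 10.25, 10.36 and 10.52 against 10.05, 10.11 and 10.11 (-0.29, SE 0.09, adjusted p = 0.092). For these factors as well, every siRND3 array was lower than every siControl array, which for a single gene corresponds to an exact two-sided permutation p of 0.1, the smallest that 3 against 3 arrays allow. ATF4 and ATF5 were called in 3 of 18 alternative analyses each and DDIT3 in 1.

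The sensors did not pass the test in either direction. ERN1 varied most between siRND3 arrays of all members (SD 0.27), with 4.73, 4.43 and 4.47 in siControl and 4.70, 4.16 and 4.41 in siRND3 (-0.12, 95% interval -0.50 to 0.26), and its sign turned without siRND3 replicate 2 (0.0120), with normexp background correction (0.0249) and in the deposited log2 values (0.0218). For EIF2AK3 the values were 6.40, 6.53 and 6.59 in siControl and 6.16, 5.97 and 6.45 in siRND3 (-0.31, interval -0.63 to 0.01, adjusted p = 0.19). These groups overlapped on 1 siRND3 array. ATF6 went the other way, from 9.84, 9.96 and 9.94 to 10.02, 9.96 and 10.18 (0.14, interval -0.07 to 0.35, adjusted p = 0.35), and its groups touched without overlapping.

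**Figure D2:**
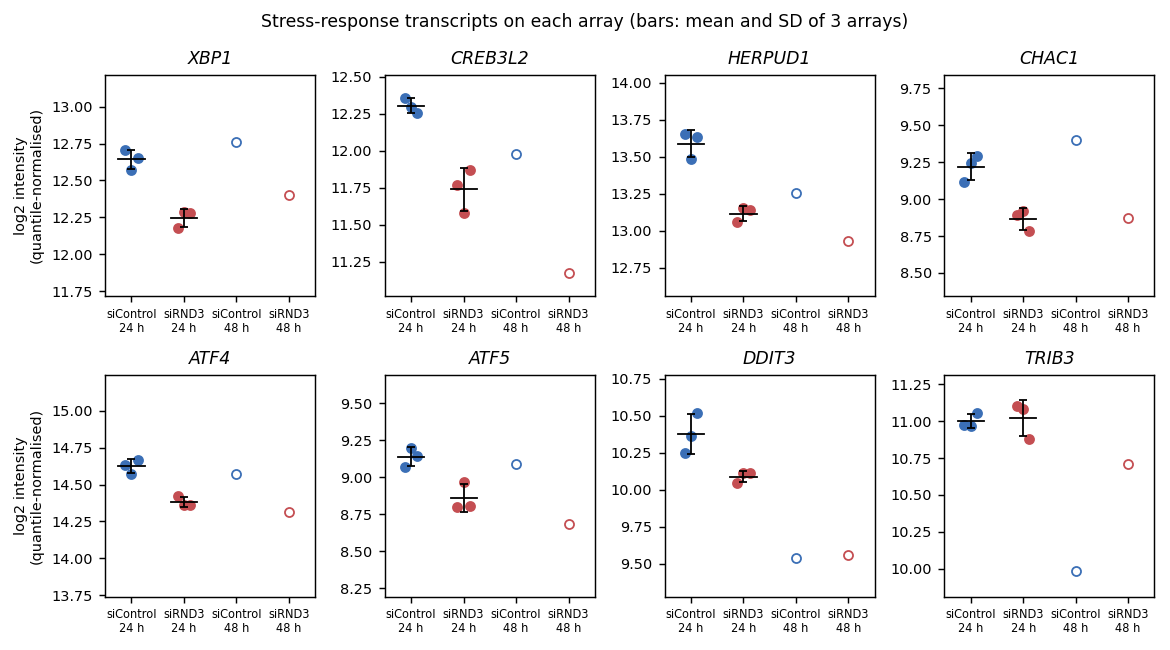
Quantile-normalised log2 intensity on every array for 8 of the genes, in siControl (blue) and siRND3 (red) cells at 24 h (filled, 3 arrays each, bars giving mean and SD) and 48 h (open, 1 array each). XBP1, CREB3L2, HERPUD1, CHAC1, ATF4, ATF5 and DDIT3 were lower on all 3 siRND3 arrays at 24 h, whereas TRIB3 overlapped at 24 h and stood at 9.98 against 10.71 at 48 h.

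Among the 5 targets of ATF4 or DDIT3, CHAC1 was the one that fell. CHAC1 encodes a glutathione-degrading enzyme induced through ATF4. It read 9.12, 9.24 and 9.29 in siControl and 8.90, 8.92 and 8.78 in siRND3, a difference of -0.35 (SE 0.08, adjusted p = 0.041). A second CHAC1 probe gave a difference of -0.60 (adjusted p = 0.020). The first call was lost in 8 of 18 alternatives, including the removal of each single array, where the adjusted p lay between 0.071 and 0.15. The CHAC1 promoter (plus strand, chr15:40953221-40953520) is printed because it holds an ATF4-type composite element (CARE, TGATGNAA), which stands on the opposite strand at bases -209 to -202 and is shown in capitals:
CHAC1: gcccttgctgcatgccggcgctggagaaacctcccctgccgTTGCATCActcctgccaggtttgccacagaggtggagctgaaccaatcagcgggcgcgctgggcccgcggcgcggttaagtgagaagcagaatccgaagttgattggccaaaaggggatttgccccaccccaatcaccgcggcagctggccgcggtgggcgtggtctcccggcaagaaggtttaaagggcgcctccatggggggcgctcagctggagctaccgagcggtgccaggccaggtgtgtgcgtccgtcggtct

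The other targets were not called. TRIB3, a pseudokinase that restrains ATF4 and AKT, gave 10.97, 10.97 and 11.06 against 11.10, 11.08 and 10.88 (0.02, interval -0.19 to 0.23), with its sign turning without siRND3 replicate 1 (-0.0195) or 2 (-0.0109). ASNS, the asparagine synthetase, stood at -0.02 (interval -0.20 to 0.16). PPP1R15A (GADD34), which restores translation by dephosphorylating eIF2alpha, stood at -0.11 (interval -0.32 to 0.10). The lipoprotein receptor VLDLR read 8.27, 8.25 and 8.10 in siControl and 7.97, 8.02 and 8.01 in siRND3, a difference of -0.20 (SE 0.08, adjusted p = 0.15) with groups that did not overlap.

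None of the 7 ER chaperones and co-factors and none of the 4 protein disulfide isomerases passed the test at 24 h. For the chaperone group differences ran from -0.16 for HSP90B1 (GRP94) to 0.21 for CRELD2, with a median of -0.01. CRELD2, a secreted stress-induced ER protein, read 13.13, 13.03 and 13.03 in siControl and 13.24, 13.29 and 13.26 in siRND3 (SE 0.07, adjusted p = 0.11), and its siRND3 arrays were all higher. The calcium-binding lectin chaperones differed in sign, CALR at 0.09 (interval -0.07 to 0.26) and CANX at -0.11 (interval -0.34 to 0.12). Values closest to 0 were those of the HSP70-family exchange factor HYOU1 at 0.02 and of SDF2L1 at -0.01, whereas the secreted factor MANF stood at -0.12 with groups that did not overlap. The disulfide isomerases PDIA3, PDIA4, PDIA6 and P4HB, which make and rearrange disulfide bonds in client proteins, spanned -0.11 to -0.05 by their brightest probes. Second probes of HSP90B1 (-0.30), CANX (-0.28) and PDIA3 (-0.23) were lower with groups that did not overlap. That of P4HB gave -0.07 with overlap, and none of these second probes was called.

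Of the 9 genes of ER-associated degradation, HERPUD1 fell and the other 8 were not called. HERPUD1, an ER membrane protein that organises the ubiquitin ligase complex, read 13.65, 13.48 and 13.63 in siControl and 13.06, 13.15 and 13.14 in siRND3, a difference of -0.47 (SE 0.08, adjusted p = 0.015) with every siRND3 array lower. In the same complex SYVN1, the ubiquitin ligase HRD1, stood at 0.07 (interval -0.09 to 0.23) and its partner SEL1L at 0.15 (interval -0.07 to 0.38). The mannosidase-like proteins EDEM1 and EDEM3, which mark glycoproteins for disposal, stood at -0.08 each, while EDEM2 read 9.88, 9.98 and 10.07 in siControl and 10.33, 10.34 and 10.12 in siRND3 (0.29, SE 0.09, adjusted p = 0.10). The derlins DERL1, DERL2 and DERL3, membrane proteins of the retrotranslocation channel, lay between -0.10 and 0.01. SEC61B, a subunit of the translocon through which proteins enter the ER, stood at -0.08 (interval -0.24 to 0.09).

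The promoter of HERPUD1 is printed because it was alone among these genes in holding both kinds of element, the shorter ERSE-II and a CARE. In the window on the plus strand (chr16:56931892-56932191) the capitals mark first the CARE, on the opposite strand at bases -176 to -169, and then the ERSE-II at bases -117 to -107:
HERPUD1: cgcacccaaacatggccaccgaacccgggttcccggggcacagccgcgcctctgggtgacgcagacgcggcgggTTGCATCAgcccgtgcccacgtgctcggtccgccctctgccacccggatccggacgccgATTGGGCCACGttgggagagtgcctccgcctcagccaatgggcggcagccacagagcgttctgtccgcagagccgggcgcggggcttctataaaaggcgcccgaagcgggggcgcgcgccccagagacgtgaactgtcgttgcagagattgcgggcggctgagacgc

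Promoter windows of this kind were found in the RefSeq table for 31 of the 34 genes (not for DERL1, DERL3 and PDIA3) and searched on both strands for exact letters. The ERSE (CCAAT and CCACG with 9 open bases between them) was present in 0.0769% of all 35116 windows and in 6 of the genes, the ERSE-II (ATTGG and CCACG with 1 open base between them) in 0.0541% and in 3, the UPR element (TGACGTGG) in 0.729% and in HYOU1, where it overlaps an ERSE-II, and the CARE (TGATGNAA) in 3.62% and in ASNS, CHAC1, CREB3L2 and HERPUD1. The CREB3L2 match lies in the window of a second annotated start. The percentages count windows, whereas a gene was counted where any of its windows held a match. Shares and gene counts are therefore not on the same scale. The ERSE matches are set side by side, in the orientation of the motif, with the fixed letters in capitals and the spacer in lower case. HSP90B1 has a pair of them, and HSPA5 (BiP) is added from the list of other ER folding genes:
XBP1: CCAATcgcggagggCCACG
CALR: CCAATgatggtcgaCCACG
CANX: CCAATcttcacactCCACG
CRELD2: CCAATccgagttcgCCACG
PDIA6: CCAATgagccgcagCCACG
HSP90B1: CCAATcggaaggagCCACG
HSP90B1: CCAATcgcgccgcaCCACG
HSPA5: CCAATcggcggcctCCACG

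HYOU1 has a pair of ERSE-II matches with the same letters, at bases -185 to -175 and -79 to -69, and is printed once. Between genes the ERSE-II matches differ at the single open position:
HERPUD1: ATTGGgCCACG
HYOU1: ATTGGaCCACG
SDF2L1: ATTGGtCCACG

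At 24 h none of the 34 was called higher, with or without one of these elements. Of the 9 genes with an ERSE or ERSE-II, XBP1 and HERPUD1 were lower and 7 were not called, the latter running from -0.16 for HSP90B1 to 0.21 for CRELD2. Of the 4 genes with a CARE, CHAC1, CREB3L2 and HERPUD1 were lower and ASNS, at -0.02, was not called. The second CREB3L2 probe gave -0.07. For comparison, 4 of all 34 genes and 8.31% of all genes tested were called lower at 24 h, and these small counts were not tested. A match of letters is a description of the window and neither shows a bound factor nor a cause.

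At 48 h, with 1 array for each treatment, 7 of the 34 genes passed the threshold, 3 higher and 4 lower in siRND3, against 13.2% and 12.3% of all genes tested (25.5% in either direction). The genes that rose were TRIB3, CRELD2 and SYVN1, and those that fell were CREB3L2, VLDLR, CHAC1 and EDEM3. The limma model took the spread of the single arrays from the arrays at 24 h, which is an assumption. The median difference over the members was -0.15 compared to 0.06 over all genes tested. Without any single one of the siControl arrays at 24 h, whose spread enters the model, 3 calls were left (TRIB3, CREB3L2 and VLDLR), with 19.6%, 20.1% and 19.0% of all genes called without replicate 1, 2 or 3.

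CREB3L2 had the largest difference of the 34 at 48 h, with 11.98 in siControl and 11.17 in siRND3 (-0.80, SE 0.16, adjusted p = 0.018). TRIB3 was next at 9.98 against 10.71 (0.72, SE 0.15, adjusted p = 0.020), the opposite direction to CREB3L2. VLDLR followed with 8.55 against 7.90 (-0.65, SE 0.13, adjusted p = 0.019). CHAC1 stood at 9.40 against 8.87 (-0.53, SE 0.14, adjusted p = 0.045), although its second probe was not called (-0.23, adjusted p = 0.50). EDEM3 gave 9.87 against 9.35 (-0.52, SE 0.12, adjusted p = 0.029), and its other probes gave -0.63 (adjusted p = 0.040) and -1.01 (adjusted p = 0.13). The rises of CRELD2, from 12.69 to 13.20 (0.51, SE 0.12, adjusted p = 0.029), and of SYVN1, from 10.31 to 10.80 (0.49, SE 0.11, adjusted p = 0.029), completed the calls. Over time, CRELD2 in siControl went from a mean of 13.06 at 24 h to 12.69 at 48 h, and in siRND3 from 13.27 to 13.20. CREB3L2 and CHAC1 were called lower at both times by their brightest probes. The second CREB3L2 probe gave only -0.12 at 48 h and the second VLDLR probe -0.39, neither of them called. PDIA3 was not called at 48 h by its brightest probe (-0.17, adjusted p = 0.39), whereas its second probe was lower (-0.56, adjusted p = 0.046).

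Of the genes that fell at 24 h, HERPUD1 at 13.25 against 12.93 (-0.32, adjusted p = 0.17) and XBP1 at 12.76 against 12.40 (-0.36, adjusted p = 0.12) were not called at 48 h. ATF4 (14.57 against 14.31, -0.26) and ATF5 (9.09 against 8.68, -0.41) had the same sign as at 24 h, while DDIT3 was level, at 9.54 against 9.56 (0.02). Among the sensors, ERN1 read 4.80 against 4.64, EIF2AK3 6.57 against 6.33 and ATF6 10.07 against 10.44, none of them called. The sign of the difference was the same at 24 h and 48 h for 29 of the 34 genes, where 75.1% of all genes tested had the same sign.

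**Figure D3:**
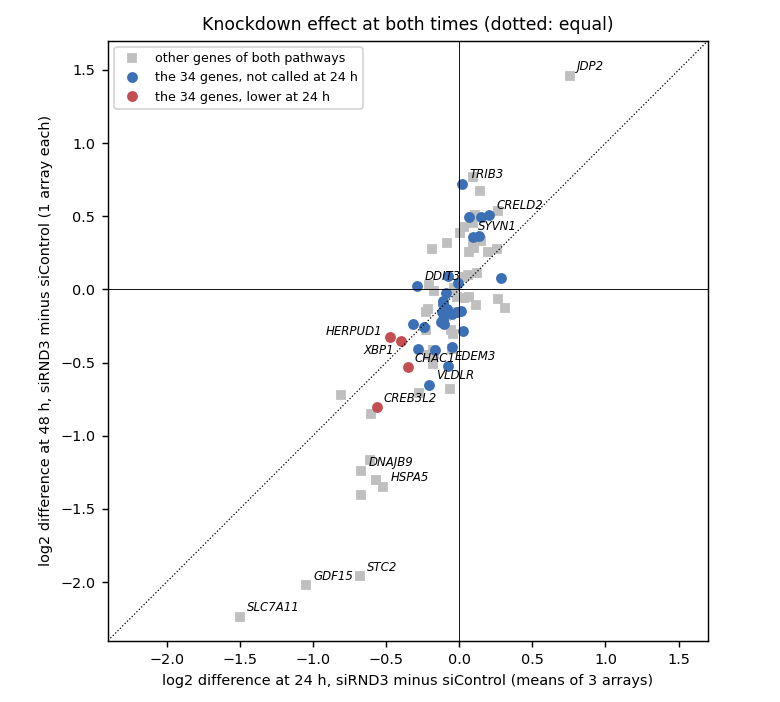
Log2 difference (siRND3 minus siControl) at 24 h on the horizontal axis and at 48 h on the vertical axis for the 34 genes (circles, red where called lower at 24 h) and the other genes of both pathways (grey squares), with a dotted line of equality. Most of the 34 lie within 0.5 of 0 on both axes with TRIB3 alone near 0.72 at 48 h, while SLC7A11, GDF15 and STC2 lie near or below -2 at 48 h.

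Whether the effect of siRND3 differed between the times was tested as the difference of differences in the same model. In this test 0 of the 34 genes passed, against 3.76% of all genes tested (1.43% with the effect at 48 h higher and 2.33% lower), and 4 had an unadjusted p under 0.05, as did 21.9% of all genes. TRIB3 had the largest value, an effect at 48 h higher by 0.70 than that at 24 h (adjusted p = 0.095). It was called under normexp background correction (adjusted p = 0.032) and when a gene's probes were averaged (adjusted p = 0.046), and not in the other 12 alternatives, where the adjusted p reached 0.22. For DDIT3 the effects differed by 0.31 (adjusted p = 0.43).

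Between 24 h and 48 h a pair of the genes moved in siControl cells. Of the members 0 were called higher and 2 lower there, against 1.13% and 3.60% of all genes tested (4.73% in either direction). At an unadjusted p under 0.05, 1 member was higher and 7 were lower there, compared to 8.91% and 14.6% of all genes. TRIB3, at 10.97 to 11.06 on the arrays at 24 h, fell to 9.98 at 48 h (-1.02, adjusted p = 0.016), and DDIT3, at 10.25 to 10.52, fell to 9.54 (-0.84, adjusted p = 0.026). Both calls were lost without any single siControl array at 24 h. In siRND3 cells, where 3.22% of genes were called higher and 8.24% lower between times (11.5% in either direction), TRIB3 went from between 10.88 and 11.10 to 10.71 (-0.31, adjusted p = 0.17) and DDIT3 from between 10.05 and 10.11 to 9.56 (-0.53, adjusted p = 0.052). Among the members there, 1 was called lower, CREB3L2 (-0.57, adjusted p = 0.050), and 1 higher, SYVN1 (0.41, adjusted p = 0.044), at 48 h. A second CREB3L2 probe went the other way between times in siRND3 cells (0.27). Over the alternatives the CREB3L2 value ran from -0.65 to -0.15, and its call was lost in 9 of 14. The SYVN1 call was lost in 7 of 14. The comparisons between times share arrays with those of the treatments, and their values are only given side by side.

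In order to place the 34 genes within their pathways, the remaining genes of both pathways were read out in the same fit. Of 22 other genes of ER folding and the unfolded protein response tested, 2 fell at 24 h and 0 rose (3 and 1 at an unadjusted p under 0.05), with a median of -0.02, where 8.31% of all genes tested were called lower and 6.71% higher. HSPA5, the ER chaperone BiP that keeps the sensors inactive, read 12.20, 12.15 and 12.20 in siControl and 11.69, 11.64 and 11.67 in siRND3 (-0.52, SE 0.07, adjusted p = 0.0052). DNAJB9 (ERdj4), a co-chaperone of BiP, read 11.01, 11.01 and 11.13 against 10.41, 10.28 and 10.44 (-0.67, SE 0.08, adjusted p = 0.0044). Both groups were fully separated, and both genes were lower at 48 h as well, HSPA5 at 12.29 against 10.94 (-1.35) and DNAJB9 at 11.48 against 10.24 (-1.24), while CREB3 was the gene of that list that rose at 48 h (0.77). The HSPA5 promoter (minus strand, chr9:125241294-125241593) is printed for comparison with that of XBP1, with its ERSE at bases -66 to -48 in capitals:
HSPA5: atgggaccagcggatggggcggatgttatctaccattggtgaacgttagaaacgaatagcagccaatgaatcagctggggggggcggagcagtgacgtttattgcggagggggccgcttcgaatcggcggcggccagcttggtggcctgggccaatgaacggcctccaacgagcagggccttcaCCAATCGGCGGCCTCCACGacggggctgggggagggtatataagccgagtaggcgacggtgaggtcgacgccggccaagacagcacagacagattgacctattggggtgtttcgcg

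Of 31 other genes of the ATF4 pathway tested, 9 fell and 1 rose at 24 h, with a median of -0.06, against the same 8.31% and 6.71% of all genes. Those that fell were SLC7A11, GDF15, CTH, STC2, DDIT4, PSAT1, ATF3, MTHFD2 and CEBPB, and the one that rose was JDP2, a repressor of AP-1. SLC7A11, the cystine transporter, read 11.25, 11.22 and 11.27 in siControl against 9.82, 9.57 and 9.84 in siRND3 (-1.50, SE 0.09, adjusted p = 0.00046), which is 35.3% of the siControl level. GDF15, a stress-induced cytokine, read 14.72, 14.67 and 14.79 against 13.68, 13.69 and 13.66 (-1.04, SE 0.07, adjusted p = 0.00053). JDP2 read 9.32, 9.50 and 9.52 against 10.21, 10.14 and 10.27 (0.76, SE 0.09, adjusted p = 0.0036). At 48 h, 11 of the 31 were lower and 2 higher, where 12.3% and 13.2% of all genes were. In this list 9 of the 25 genes with a promoter entry held a CARE in any of their windows. Of these genes ATF3 fell, JDP2 rose and the other 7 were not called at 24 h.

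**Figure D4:**
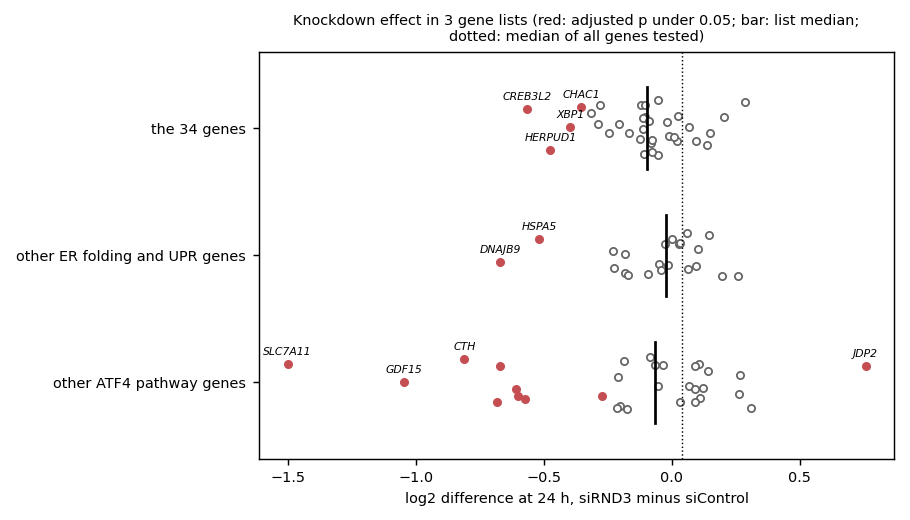
Log2 difference at 24 h (siRND3 minus siControl) for each tested gene of the 34, of the other ER folding and unfolded protein response genes (22) and of the other ATF4 pathway genes (31), red where the adjusted p was under 0.05, with the list median as a bar and the median of all genes tested (0.04) dotted. The list medians are -0.10, -0.02 and -0.06, and the lowest points are SLC7A11 at -1.50 and GDF15 at -1.04, whereas the lowest of the 34 is CREB3L2 at -0.56.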

How the data were processed

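Per the labels, total RNA from U87 cells was labelled with Cy3 for 1-colour Agilent human arrays, and per the file headers the scans were read with Feature Extraction 10.7.3.1. The deposited intensity is the processed signal of each spot, background-corrected by that software and not normalised between arrays. The deposited log2 values, normalised by the authors with quantile normalisation, ranked the spots of each array by their median signal and were used as an alternative. Here, control spots (4259 of 62976) and outlier spots (0.364% to 0.530%) were left out, the log2 processed signal was quantile-normalised over the 8 arrays, and spots were averaged to 42405 probes. The 28759 probes with at least 0.5 of their spots well above background on all 3 arrays of a group at 24 h were tested with limma 3.58.1 (R 4.3.3). The 24 h comparison was fitted on its own 6 arrays and the other contrasts in a model with 4 groups over all 8, the p-values were adjusted by Benjamini-Hochberg across the tested probes, and 0.05 was the threshold. Intervals are 95% and the number of arrays limits the precision. Gene symbols were assigned through RefSeq transcript accessions (GRCh38.p14), which matched 60.0% of probes. The tests were checked on simulated data, in which the arrays at 48 h were given the spread of those at 24 h. The simulation therefore could not check that assumption.

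The 34 genes, their roles, the pathway lists and the tests were chosen with earlier results of these data known. Values on each array are given for the sensors, ATF4, ATF5, DDIT3 and XBP1, for each gene called at 24 h, the 5 largest differences at 48 h and calls by time, and for at most 4 called genes of each pathway list. Other genes were named after their values were seen, among them CRELD2, EDEM2, SYVN1, STC2 and CREB3. Alternatives were other scalings, background corrections, filters and probe rules, SAM as in the study's methods, a replicate block, and the removal of each array at 24 h.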

Additional observations from a re-analysis of the deposited data

Results flagged for a closer look

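The effect of siRND3 differed between 48 h and 24 h in 3 genes of the pathway lists, by the test of the difference itself, and in none of the 34. For HSPA5 the effect at 48 h was lower, with a log2 difference of -0.83 (SE 0.13, adjusted p = 0.035 by limma), with -0.52 at 24 h and -1.35 at 48 h. For GDF15 this difference was -0.98 (SE 0.14, adjusted p = 0.030), with -1.04 at 24 h and -2.02 at 48 h. For STC2, a secreted glycoprotein induced by ER stress, the difference was -1.28 (SE 0.19, adjusted p = 0.033), with -0.68 at 24 h and -1.96 at 48 h. These tests rest on 1 array for each treatment at 48 h, whose spread was borrowed from the arrays at 24 h. Each of the 3 lost its call under the replicate block (adjusted p = 0.14, 0.13 and 0.12 in that order) and without any single array at 24 h, except STC2 without siRND3 replicate 3 (adjusted p = 0.048), and elsewhere the adjusted p over all alternatives went down to 0.0051, 0.0041 and 0.0048.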

How the results depend on the processing

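The number of calls at 24 h was 4 with 75th percentile scaling, the deposited values, array weights and SAM, but 8 with normexp background correction (1 higher and 7 lower), which called 20.2% of all genes in place of 15.0%, and between 0 and 3 when 1 array was left out. At 48 h the 7 calls became 12 with normexp, where 29.5% of all genes were called in place of 25.5%, and 3 to 7 without 1 array. For the difference between the times, 0 became 1 with normexp and with the mean of all probes, and stayed at 0 when arrays were left out. The 2 calls for time in siControl cells became 4 with normexp and 0 to 2 without 1 array. In siRND3 cells the 2 calls for time became 8 with normexp, 5 in the deposited values, 4 with the mean of all probes, 1 with no filter on dim probes, 1 with array weights, and 0 to 1 without 1 array. With the replicate number as a block, 0 members were called in the treatment comparison at 24 h, at 48 h and for time in either treatment, while 7.21% and 15.9% of all genes were called at 24 h and 48 h. Deviations of like-numbered arrays correlated at 0.00, -0.01 and 0.13 for replicates 1, 2 and 3. The labels do not say whether the numbers pair the arrays, and these correlations cannot decide it. The median difference at 24 h, -0.10, was -0.0652 with 75th percentile scaling and from -0.125 to -0.0670 without 1 array. The sign of ERN1 at 24 h turned with normexp (0.0249), in the deposited values (0.0218) and without siRND3 replicate 2 (0.0120, in a range from -0.262 without 1 array), and that of TRIB3 without siRND3 replicate 1 (-0.0195) or 2 (-0.0109), in a range up to 0.0907. Over single genes and both pathway lists, 578 values under the alternatives stayed on the same side of the threshold with the same direction, 88 lost a call, 9 gained one and 2 list counts moved, the 3 calls of the other ER folding genes at 48 h becoming 5 with normexp and 6 with the mean of all probes. The cause of these changes was not tested. The median of all genes tested lay between 0.03 and 0.07 at 24 h under each scaling. At 48 h the treatment rests on 1 array each, and the smallest member difference called there was 0.49.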
